A study of Mus musculus with 8 samples.

Results

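White quadriceps of control mice on a high-fat diet is described here gene by gene, from 4 RNA-seq libraries of a series of 8. The 4 libraries were chosen by their column names, which mark the floxed animals without a Cre transgene. These were male mice with loxP sites in both copies of Acot2, aged 11 to 14 weeks, which ate a 60% fat diet for 7 days before the muscle was taken in the morning. The other 4 libraries come from mice of the same age and diet that also carry a Cre transgene under the muscle creatine kinase (CKM) promoter, and their values are not used here. All 8 libraries come from mice on the fat diet and from males, so nothing below can be read as an effect of the diet, of sex or of the floxed allele. The labels give the libraries as separate samples and do not say whether each came from its own animal, so the spread between them may be technical in part.

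The white part of a limb muscle is built mostly of fast glycolytic fibres. Such fibres contract quickly with a fast myosin, take calcium back up with a fast pump, and make ATP from stored glycogen and phosphocreatine, whereas slow oxidative fibres use other members of the same gene families and more mitochondria. A muscle therefore shows its fibre type by which paralog of each contractile and metabolic family it expresses. Acot2, the floxed gene, encodes a thioesterase of the mitochondrial matrix, an enzyme that removes coenzyme A from activated long-chain fatty acids.

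The myosin heavy chains show the choice most plainly, and the bases just upstream of their start sites are printed because Myh4, Myh1 and Myh2 lie side by side on chromosome 11 and differ so widely in level. Each line gives the 100 bases before the RefSeq start site (GRCm38.p6), read 5′ to 3′ on the gene's own strand. Capitals mark the E-box CAGCTG, a palindrome that myogenic factors of the MyoD family are known to bind, and the TATA-like runs TATAAA and TATATA. Mylpf, the fast regulatory light chain, and Atp2a1, the fast calcium pump, are added as 2 abundant genes of the fast fibre that hold the E-box close to the start. They were chosen after the windows had been read, and the same 100 bases of Acta1, Ckm, Myl1, Ryr1, Pfkm and Eef1a2 hold no CAGCTG.
Myh4: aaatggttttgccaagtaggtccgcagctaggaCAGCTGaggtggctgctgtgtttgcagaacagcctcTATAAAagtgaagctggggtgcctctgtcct
Myh1: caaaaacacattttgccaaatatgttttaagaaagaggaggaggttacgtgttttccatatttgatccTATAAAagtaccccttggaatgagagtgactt
Myh2: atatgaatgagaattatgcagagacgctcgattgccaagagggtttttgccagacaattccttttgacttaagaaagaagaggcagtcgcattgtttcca
Myh7: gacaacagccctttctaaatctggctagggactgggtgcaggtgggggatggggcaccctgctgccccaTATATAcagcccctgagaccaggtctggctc
Mylpf: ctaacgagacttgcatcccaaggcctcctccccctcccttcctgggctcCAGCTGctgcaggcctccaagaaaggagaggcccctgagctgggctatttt
Atp2a1: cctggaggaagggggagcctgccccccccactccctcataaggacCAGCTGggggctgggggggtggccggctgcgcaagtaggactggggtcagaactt
The windows are chr11:67237712-67237811 (plus strand) for Myh4, chr11:67200002-67200101 (plus) for Myh1, chr11:67170927-67171026 (plus) for Myh2, chr14:54994550-54994649 (minus, the second of 2 listed starts) for Myh7, chr7:127211508-127211607 (plus) for Mylpf and chr7:126463074-126463173 (minus) for Atp2a1.

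In Myh4 the E-box begins at position -67 and the TATAAA at -31, counted from the start site, and Myh1 holds a TATAAA at -32 with no CAGCTG in these 100 bases. Over the whole 300-base windows of RefSeq, 250 bases before to 50 after each start, 14 of the 25 genes with an entry among the 30 most abundant nuclear genes held CAGCTG (56.0%). The share was 39.2% of 74 genes among the 100 most abundant, 20.5% of 813 among the 1000 most abundant and 18.3% of all 27025 genes whose promoters were read. Where only the first listed start of each gene was read, the shares were 52.0%, 35.1%, 16.1% and 16.1%. The MEF2 site, searched by its consensus on both strands, was in 16.0%, 12.2%, 4.4% and 3.7% of the same sets. The GC box GGGCGG, read on both strands, was in 52.0% of the 25 genes, 67.2% of the 813 and 38.2% of all. The letters are a description of these windows, and binding was not measured.

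The transcriptome was concentrated in few genes. Of 54091 rows in the table, 15699 had over 3 reads in each of the 4 libraries, and 13599 of these are protein-coding. Only 12 genes held 25% of all normalized counts, 120 held 50%, 1075 held 75% and 3416 held 90%. The 10 most abundant genes took 23.3% ± 1.12 (SD, n = 4), with 24.0%, 22.1%, 22.8% and 24.5% in controls 1 to 4, and the 100 most abundant took 48.3% ± 1.58. Protein-coding genes held 98.1% of counts. The libraries carried 70286177, 70275629, 85095808 and 109101290 reads on genes, recovered from the steps between low values.

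**Figure D1:**
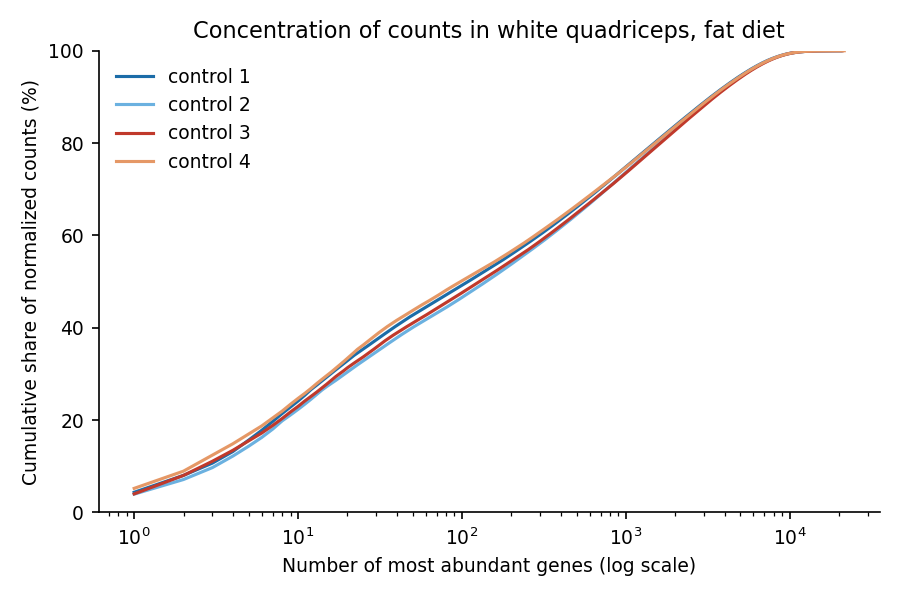
Cumulative share of normalized counts (y axis, percent) against the number of most abundant genes (x axis, log scale), with 1 line for each control library. The 4 lines lie close together, and each reaches 46.6% to 50.2% of counts at its own 100 most abundant genes.

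Myh4, the myosin heavy chain of the fastest fibres (type 2B), was the most abundant gene. Its normalized counts were 3236268, 2798456, 2830057 and 3859813 in controls 1 to 4, or 4.39% ± 0.58 of all counts. Control 4 was the highest and controls 2 and 3 were close to each other. Acta1, skeletal alpha-actin of the thin filament, followed with 2716654, 2237102, 2157007 and 2764140, and the third was mt-Co1, a cytochrome c oxidase subunit read from mitochondrial DNA, with 1857202, 1519114, 2827312 and 2576711. For mt-Co1, controls 3 and 4 both lay above controls 1 and 2.

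The rest of the 10 most abundant were Tnnt3 (fast troponin T, mean 1690873 normalized counts), Atp2a1 (1578993), Tpm1 (alpha-tropomyosin, 1535421), Aldoa (aldolase A of glycolysis, 1243160), Pvalb (parvalbumin, a soluble calcium buffer of fast fibres, 1032675), mt-Cytb (cytochrome b of complex III, 987562) and mt-Nd1 (a complex I subunit, 980159). Ranks 11 to 30 held the muscle creatine kinase Ckm, fast troponin I (Tnni2), the light chains Myl1 and Mylpf, the Z-disc protein Actn3, Tpm2, glycogen phosphorylase Pygm, the glycolytic enzymes Gapdh, Eno3, Pfkm and Pkm, the ADP/ATP carrier Slc25a4, titin (Ttn), Mybpc2, desmin (Des), Myh1, the mitochondrial mRNAs mt-Nd2, mt-Nd4 and mt-Nd5, and the ribosomal RNA mt-Rnr2. Counts rise with transcript length, and per kilobase of exon the order was different. Acta1 stood at 1607243 counts per kilobase, mt-Co1 at 1420767, Tnnt3 at 1068145, mt-Nd1 at 1024199 and Pvalb at 992003, all above Myh4 at 528781. The median over 15618 detected genes with a known length was 132.1 counts per kilobase and the 99th percentile 16882. Ttn shows the contrast most, with 346857 counts and 2969 counts per kilobase.

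Grouped by function, the contractile lists together held 22.3% ± 1.11 of counts (23.1%, 22.2%, 20.7% and 23.0%) from 93 genes. The thin filament alone held 10.0% ± 1.01, the thick filament 7.86% ± 0.67, and titin with the Z-disc and cytoskeleton 4.38% ± 0.21. Glycolysis and glycogen genes held 6.37% ± 0.48, calcium handling and excitation 6.13% ± 0.19, and creatine kinase with adenylate metabolism 1.93% ± 0.15. The 13 mRNAs of mitochondrial DNA held 8.34% ± 2.00 and the 93 nuclear genes of oxidative phosphorylation 4.12% ± 0.76. Per kilobase the order of the largest lists was different, with the mitochondrial mRNAs first at 16.8% and the thin filament next at 12.2%. The 20 lists have 945 members and together held 59.7% of counts.

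**Figure D2:**
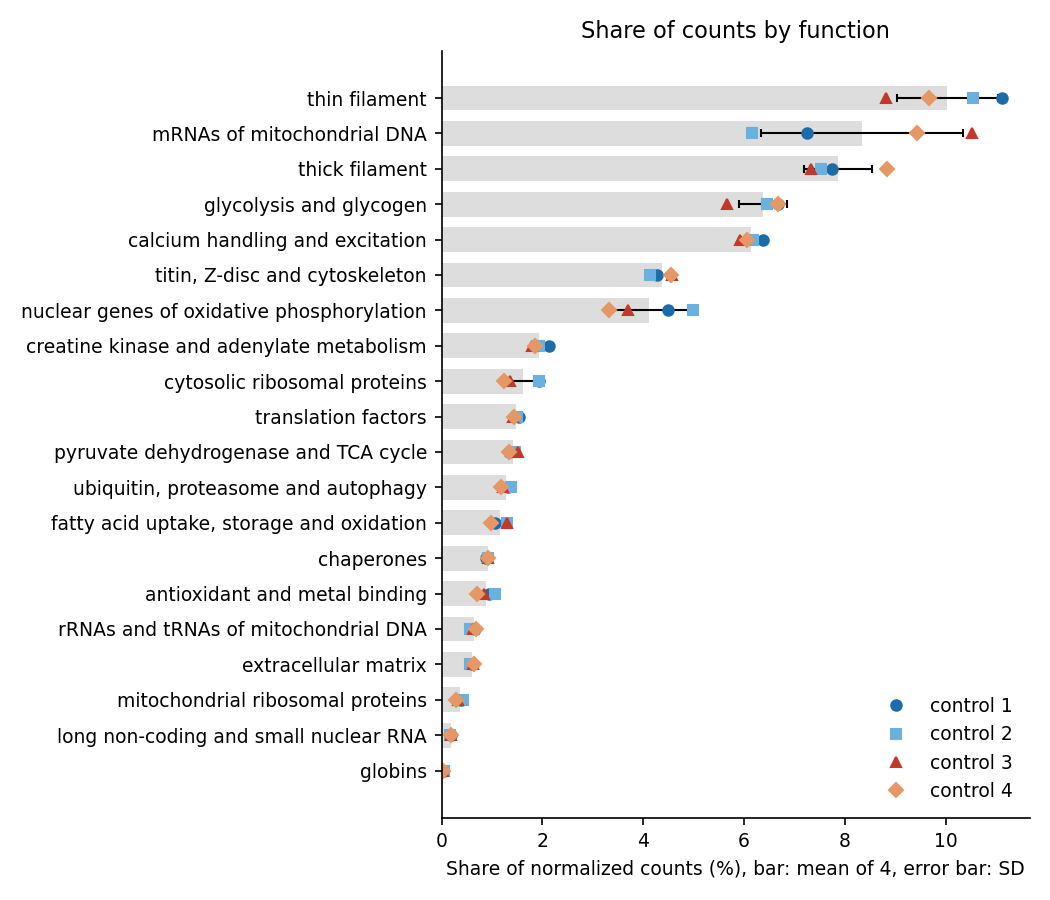
Share of normalized counts (x axis, percent) of each of 20 function lists, with bars at the mean of 4 control libraries, error bars for the SD and 1 point for each library. In percentage points the mRNAs of mitochondrial DNA spread the most, from 6.15% in control 2 to 10.5% in control 3.

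Genes of glycolysis outweighed those of fat use. Per kilobase, glycolysis and glycogen genes held 5.42% of the total and the list for fatty acid uptake, storage and oxidation 0.96%. By counts not divided by length, the glycolysis and glycogen list held 5.59 ± 1.14 times as much as the fatty acid list (6.31, 4.94, 4.34 and 6.78 in controls 1 to 4). Aldoa, the enolase Eno3 (249072 counts per kilobase) and the phosphoglycerate mutase Pgam2 (189886) led glycolysis per kilobase, with Pygm, which releases glucose units from glycogen, next at 141722. Slc2a4, the insulin-responsive glucose transporter, was among the steadier of the list, with 38524, 33465, 33428 and 36001 normalized counts. The fatty acid list held 1.16% ± 0.17 of counts and was led by Fabp3 (cytosolic fatty acid binding, 89006 counts per kilobase), Acadl (18468) and Acaa2 (12236), both of beta-oxidation. Fabp3 gave 73196, 91316, 83217 and 45279 normalized counts, with control 4 well below the others.

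The floxed gene itself was expressed, with 2179, 3348, 4165 and 2166 normalized counts for Acot2. Control 3 had the most and controls 1 and 4 were alike. Among 13 acyl-CoA thioesterases, Acot2 held 12.5% ± 3.78 of the family per kilobase, after Acot13 with 69.0% ± 3.41. By counts not divided by length the 2 shares were 21.8% and 41.1%. Of the 50-base windows of Acot2, 27.7% also occur in another gene, chiefly Acot1, whose mean was 380 normalized counts.

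Transcripts of mitochondrial DNA and nuclear transcripts for oxidative phosphorylation were high in different libraries. Mitochondrial mRNAs held 7.25%, 6.15%, 10.5% and 9.44% of counts in controls 1 to 4, highest in control 3. Nuclear genes of oxidative phosphorylation held 4.49%, 4.99%, 3.69% and 3.32%, highest in control 2. The ratio of nuclear to mitochondrial shares was 0.62, 0.81, 0.35 and 0.35. Of 90 nuclear genes with a mean of at least 100, 72 were highest in control 2 (80.0%) and 76 lowest in control 4 (84.4%). Over all 11563 genes of that level the shares were 23.7% and 28.4%, and over the quartile with the shortest exons, which holds 74.4% of these nuclear genes, 40.9% and 50.5%. Among the nuclear genes, Slc25a4, which exchanges ADP and ATP across the inner membrane, led per kilobase (152741), followed by the muscle forms of 2 cytochrome c oxidase subunits, Cox6a2 (82636) and Cox8b (75081).

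The mRNAs of mitochondrial DNA differ in how well reads can be placed. mt-Cytb, mt-Nd1 and mt-Nd6 share none of their 50-base windows with another annotated gene, whereas mt-Co2, mt-Co3, mt-Atp6, mt-Nd3 and mt-Nd4l share at least 98% of theirs with nuclear copies such as Gm28661 and Gm10925. Those 5 had means of only 1175 to 12231 normalized counts, against 2195085 for mt-Co1, which shares 51.1% of its windows. mt-Nd4 shares 62.2%. mt-Atp8 had a mean of 250 with no shared window, and 21.1% of its exon bases lie in another gene. The levels of these 8 mRNAs, and with them the mitochondrial share, are therefore uncertain.

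The paralog chosen by the muscle was described in 53 families, each member's count divided by its exon length. In 18 families a single member held over 99% of the family and in 32 at least 90%. The leader was the same in each of the 4 libraries in 51 families. Whether length was taken from all exons, the longest transcript or the principal transcript, the leader was the same in 53 of 53, but the shares changed in some families.

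**Figure D3:**
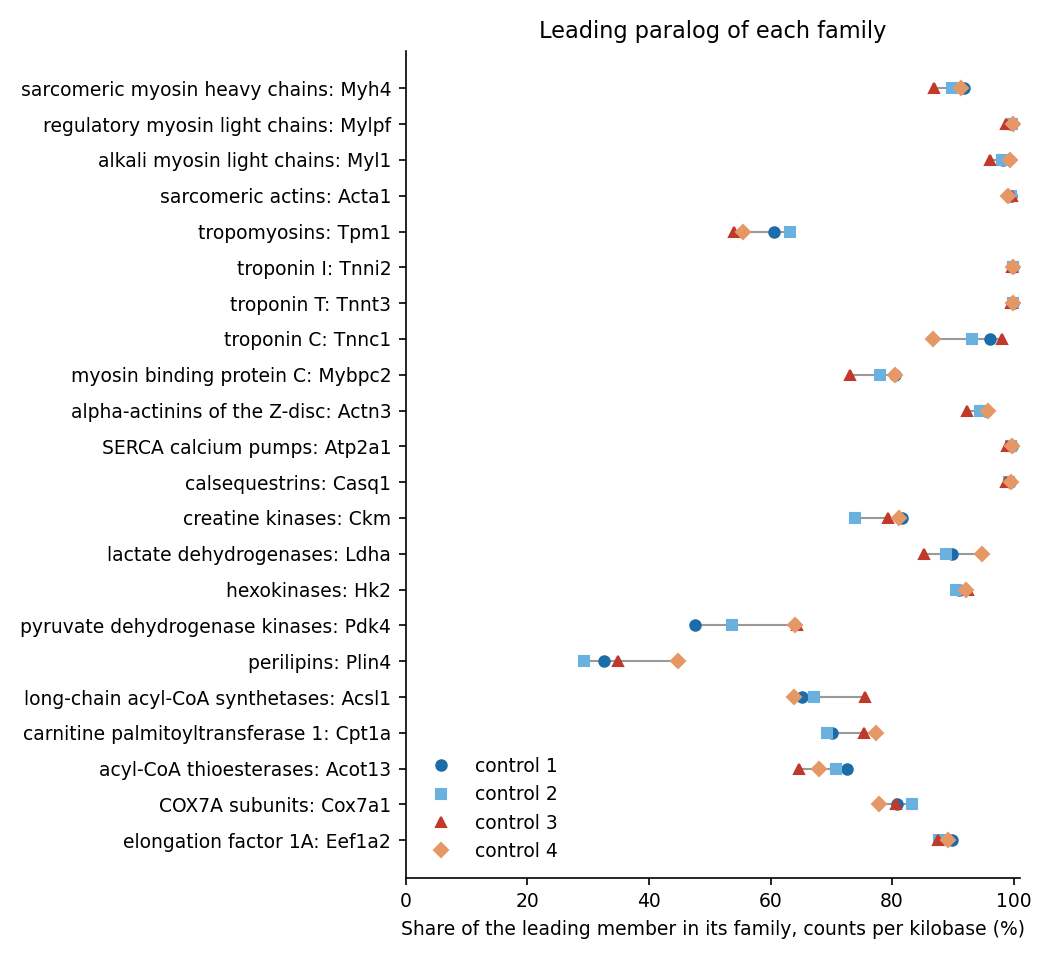
Share of the leading member in 22 of the gene families, in counts per kilobase (x axis, percent), with 1 point for each control library. Most fast contractile members sit near 100%, whereas Pdk4 ran from 47.5% to 64.4% and Plin4 from 29.4% to 44.8%.

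In the thick filament, Myh4 held 89.97% ± 2.26 of the sarcomeric heavy chains (91.8%, 89.9%, 86.8% and 91.4%). Myh1, the type 2X chain, held 7.63% ± 1.16, Myh2, the type 2A chain, 2.23% ± 1.08, and Myh7, the slow chain, 0.11% ± 0.14. The Myh7 mean rests on control 3, with 0.056%, 0.043%, 0.325% and 0.030% in controls 1 to 4 and 0.043% without control 3. Control 3 had the lowest Myh4 share and the highest shares of the other 3. These chains are alike in sequence, and 18.9% of Myh4 windows, 25.4% of Myh1 windows and 22.9% of Myh2 windows occur elsewhere. Among light chains, Mylpf held 99.5% ± 0.46 of the regulatory family and Myl1 97.9% ± 1.42 of the alkali family. Mybpc2, the fast myosin-binding protein C, held 78.0% ± 3.48, with the slow form Mybpc1 at 22% ± 3.47.

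In the thin filament and Z-disc, Acta1 held 99.4% ± 0.28 against cardiac actin Actc1, and fast troponins Tnni2 and Tnnt3 held 99.9% ± 0.12 and 99.8% ± 0.18. Actc1 gave 12297, 11809, 8177 and 28638 normalized counts, and control 4 stood above the others. Tropomyosin had 2 abundant members, Tpm1 at 58.3% ± 4.33 and Tpm2 at 41.4% ± 4.18. These shares depend on the length used, and per principal transcript they were 77.3% and 22.4%. Actn3, the alpha-actinin of fast fibres, held 94.5% ± 1.51 and its partner Actn2 5.52% ± 1.51.

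Troponin C stood apart from the other fast troponins. The slow form Tnnc1 held 93.6% ± 4.98 of the family, with 2406, 1557, 5736 and 821 normalized counts, and the fast form Tnnc2 gave only 74, 87, 83 and 96. Tnnc2 lies at chr2:164777161-164779967 on the minus strand, and 74.0% of its exon bases fall in exons of another gene. None of its 50-base windows occurs in another gene. Of 13569 protein-coding genes with a mean of at least 10, 172 (1.27%) have over 50% of exon bases in another gene. How reads in overlapping genes were counted is not stated, and the part of the overlap in this value was not tested. Cpt1b, the muscle carnitine palmitoyltransferase that admits fatty acids to mitochondria, was likewise low, with a mean of 69 normalized counts and 81.4% of its exon bases in another gene.

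Calcium handling was led by skeletal muscle forms, among them the fast pump. Atp2a1 held 99.5% ± 0.37 of the calcium pumps, the calcium store Casq1 99.2% ± 0.33, and the release channel Ryr1 nearly all of its family (100% after rounding). Mrln, the micropeptide that restrains the pump in skeletal muscle, held 94.9% ± 3.70 of its family. Pvalb gave 1278215, 1331018, 708691 and 812776 normalized counts, with controls 1 and 2 above controls 3 and 4.

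Among metabolic families, Ckm held 79.0% ± 3.60 of the creatine kinases and the mitochondrial form Ckmt2 20.9% ± 3.59. Ldha, which favours lactate, held 89.7% ± 3.87 against Ldhb, and the Ldhb share ran from 5.30% in control 4 to 14.7% in control 3. Hk2, the insulin-responsive hexokinase, held 91.6% ± 0.99. Slc16a3, a lactate exporter, held 87.9% ± 2.68 of the monocarboxylate transporters. Muscle forms also led cytochrome c oxidase (Cox6a2 96.4% ± 0.44, Cox7a1 80.6% ± 2.20, Cox8b 95.3% ± 0.69), elongation factor 1A (Eef1a2 88.6% ± 1.12) and ribosomal protein L3 (Rpl3l 95.8% ± 0.24). Per principal transcript Eef1a2 held 84.8% and Rpl3l 92.0%. Of the 50-base windows of the other members, 39.4% for Eef1a1 and 35.0% for Rpl3 also occur in other genes, so their reads may be undercounted.

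Some families of fat use had no dominant member and others did. Fabp3 held 95.6% ± 0.85 of the fatty acid binding proteins and Ucp3 94.5% ± 1.75 of the uncoupling proteins. Per principal transcript Fabp3 held 81.5%, with Fabp4 at 17.7%. Pdk4, a kinase that shuts off pyruvate dehydrogenase when fat is burned, gave 44026, 50960, 80890 and 73588 normalized counts, and controls 3 and 4 lay above the others. It held 57.4% ± 8.26 of its family, with Pdk2 at 40.3% ± 8.37, and in control 1 Pdk2 was ahead with 50.3%. Per principal transcript the mean shares of Pdk4 and Pdk2 were close, at 49.2% and 47.9%. Perilipins, which coat lipid droplets, were led by Plin4 (35.4% ± 6.66) and Plin5 (32.7% ± 6.44), but Plin5 was ahead in controls 1, 2 and 3, and the lead of Plin4 rests on control 4 (44.8% against 23.4%). Without control 4, Plin5 led with 35.9% against 32.3%. Acsl1, which activates long-chain fatty acids, held 67.9% ± 5.30 of its family, or 80.3% per principal transcript. Ucp3, an uncoupling protein of the inner membrane, gave 7988, 8069, 12103 and 15827, with controls 1 and 2 alike and both below the others.

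Transcription factors were read per kilobase. Tbx15, a factor of fast glycolytic fibres, led the 27 myogenic and fibre-type regulators with 6754 counts per kilobase, followed by Myf6 (4566), the myogenic factor of mature fibres, and Vgll2 (3980). Myod1 stood at 1142, Myog at 168.5 and Myf5, best known from satellite cells, at 47.7. Prox1, a regulator known from slow fibres, was the lowest at 13.9, with 85.5, 54.3, 205.5 and 122.9 normalized counts.

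Of 19 circadian clock genes, Nr1d1 (REV-ERB alpha, a repressor of the clock loop) led with 3290 counts per kilobase, followed by Tef (2676) and Bhlhe40 (1568). Per2 was the lowest at 17.0, and Arntl, which encodes BMAL1, stood at 294. The tissue was collected within a single morning window, so these are levels at that time only. Among 20 secreted factors, Sparc (8835), Vegfb (7018) and Dcn (5885) led, and Mstn, the growth inhibitor myostatin, stood at 1449. Fgf21 had 1.1, 2.0, 0.0 and 0.0 normalized counts, under the value of 3 reads in each library (2.04 to 3.17). Il6 exceeded that value in controls 1, 2 and 4, with at most 6.8, and was listed at 0 in control 3. Among 26 receptors, the adiponectin receptors Adipor1 (5488) and Adipor2 (1720) led, ahead of the growth hormone receptor Ghr (1367), with the insulin receptor Insr at 346.

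Markers of fibre type and other cells were summed per library. The 10 fast glycolytic genes summed to 10826225, 9825909, 8906984 and 10567903 normalized counts, and the 9 slow-fibre genes to 39997, 37939, 104561 and 20361. The highest slow sum was 5.14 times the lowest, against 1.22 times for the fast genes. In bulk tissue, fewer slow fibres and less slow RNA per fibre cannot be told apart. The 6 heart genes summed to 558 to 967 normalized counts. Most of that was Myl4 (252 to 534) and Myh6 (144 to 522), whereas Tnni3 gave 11.6 to 59.1, and Myl7, Nppa and Nppb at most 6.1.

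The slow genes differed between libraries together. All 9 were highest in control 3 and 8 of 9 lowest in control 4, whereas of 11563 genes with a mean of at least 100, 21.6% were highest in control 3 and 28.4% lowest in control 4. Myh7 gave 2837, 1899, 15188 and 1787 normalized counts, and control 3 stood apart. Atp2a2, the slow calcium pump, gave 7457, 8109, 30037 and 7525, again with control 3 alone. Tnnt1 (slow troponin T) gave 3390, 2967, 9217 and 1115, and here control 4 was also below the other 3.

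Other markers were high in control 2, which was the highest library for 23.7% of the 11563 genes. The 7 white adipocyte genes summed to 29497, 40237, 20548 and 23166, and 6 of 7 were highest in control 2. Fabp4, the most abundant of them, is also expressed by endothelial cells. Cidec, a lipid droplet protein, gave 816, 2507, 829 and 895, and Scd1, the fatty acid desaturase, 16155, 50974, 18394 and 19587. The exception was Cfd, highest in control 1 with 6802. The 5 erythroid genes summed to 19665, 37405, 22253 and 20911, and 5 of 5 were highest in control 2. The fatty acid list also had 37 of 68 members highest in control 2 (54.4%) and 40 of 68 lowest in control 4 (58.8%, against 28.4% of all genes). The part of adipose tissue or blood in those counts was not tested.

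**Figure D4:**
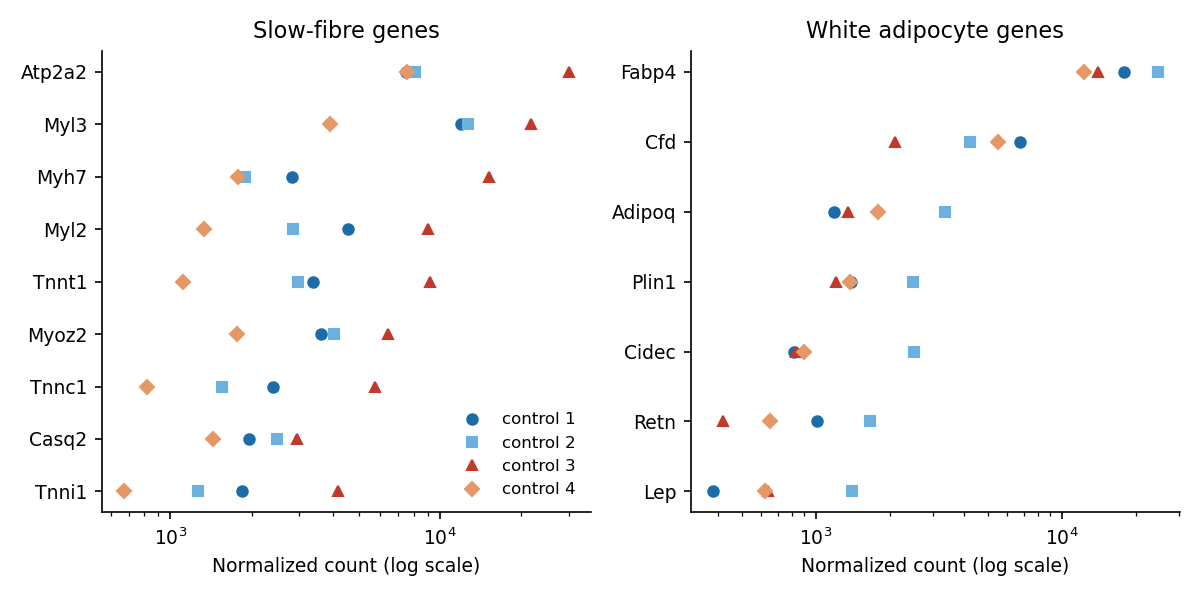
Normalized counts (x axis, log scale) of 9 slow-fibre genes and 7 white adipocyte genes, with 1 point for each control library. Control 3 is the highest for 9 of 9 slow genes, and control 2 for 6 of 7 adipocyte genes.

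Markers of cells between the fibres were also summed. Endothelial genes summed to 18469 to 24123 normalized counts. Smooth muscle and pericyte genes summed to 29276 to 34929, mostly Rgs5 (19661 to 24526), and fibro-adipogenic progenitor genes, led by Dcn, to 44111 to 58489. The 9 macrophage genes summed to 8429 to 12415, lowest in control 3. Of the 9, 6 were lowest there, against 20.6% of the 11563 genes with a mean of at least 100. Cd163 was lowest in control 1, and Mrc1 and Adgre1 in control 2. Satellite cell genes summed to 2001 to 2243, and Pax7, their defining factor, gave 77.0, 124.6, 229.6 and 175.8. Most of the satellite cell sum was Cdh15 alone (1515 to 1695). Schwann cell genes summed to 11931, 11976, 9779 and 7896, and 5 of 5 were lowest in control 4. Of all 11563 genes with a mean of at least 100, 28.4% were lowest in that library. Lymphocyte and neutrophil genes were low. The 5 T and NK cell genes summed to 213 to 348, the 4 B and plasma cell genes to 36.5 to 75.4 and the 4 neutrophil genes to 8.8 to 112.5. Most of the T and NK cell sum was Cd3e alone (203.9 to 340.1). Of the neutrophil genes, S100a8 gave 12.7, 73.3, 16.6 and 6.1, highest in control 2, and Ly6g was at 0 in the 4 libraries.

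Across 11563 genes with a mean of at least 100, the median coefficient of variation (SD divided by mean) between libraries was 14.9%, with quartiles of 9.44% and 21.99%. Counting error alone would give a median of 2.74%. With controls 3 and 4 left out, a choice made after seeing the data, the median over the other 2 libraries was 6.38%. A coefficient from 2 libraries runs lower than one from 4 at the same spread, so this value is not comparable with 14.9%. In 771 genes the coefficient was under 5% and in 165 (1.43%) over 50%. Among the 6298 genes with a mean of at least 1000, the steadiest included Tfdp1, a partner of E2F factors, with 3529, 3588, 3576 and 3596. Fam118b, Mbnl1, Pdcl, Ltbp3, Ubap1, Ube2h, Gatad2a and Ddx24 were also among them, each with a coefficient of 1.2% or less. The most variable were Myh7 (120%), F830016B08Rik (114%), Atp2a2 (84.1%), Tnnt1, Tnnc1, Tnni1, Myl2, Pdpr, Usp9x and Tpm3 (66.2%). Slow-fibre genes make up 6 of those 10, and Tpm3, the slow tropomyosin, is a seventh gene of that kind, outside the marker list.

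Not all of the variable genes followed the slow fibre. Pdpr, a regulator of pyruvate dehydrogenase phosphatase, gave 1661, 2030, 7616 and 8364 normalized counts. Usp9x, a deubiquitinase, gave 1694, 2038, 6475 and 8260. In both, controls 3 and 4 stood far above controls 1 and 2 with no overlap. F830016B08Rik gave 319, 267, 823 and 2836, highest in control 4. These genes were picked by their spread over these same libraries, and the share of all genes that split without overlap was not counted. Control 4 was the highest library for 29.3% of the 11563 genes with a mean of at least 100.

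A like split appeared over the whole transcriptome when genes were ordered by exon length. The first principal component took 52.7% of the variance and placed controls 1 and 2 at -35.0 and -35.6 and controls 3 and 4 at 32.3 and 38.3. For the 2885 shortest genes (the first quartile of exon length, up to 2820 bases), the median log2 difference from the mean of the 4 libraries was 0.18, 0.17, -0.15 and -0.19. For the 2883 longest (at least 6977 bases) it was -0.15, -0.16, 0.14 and 0.18. Controls 1 and 2 were the highest library for 82.1% of the shortest genes and for 17.9% of the longest. The median absolute log2 difference was 0.17 between controls 1 and 2, 0.17 between controls 3 and 4, and 0.34 to 0.37 in the other pairs. The labels used here give no batch that separates these pairs.

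**Figure D5:**
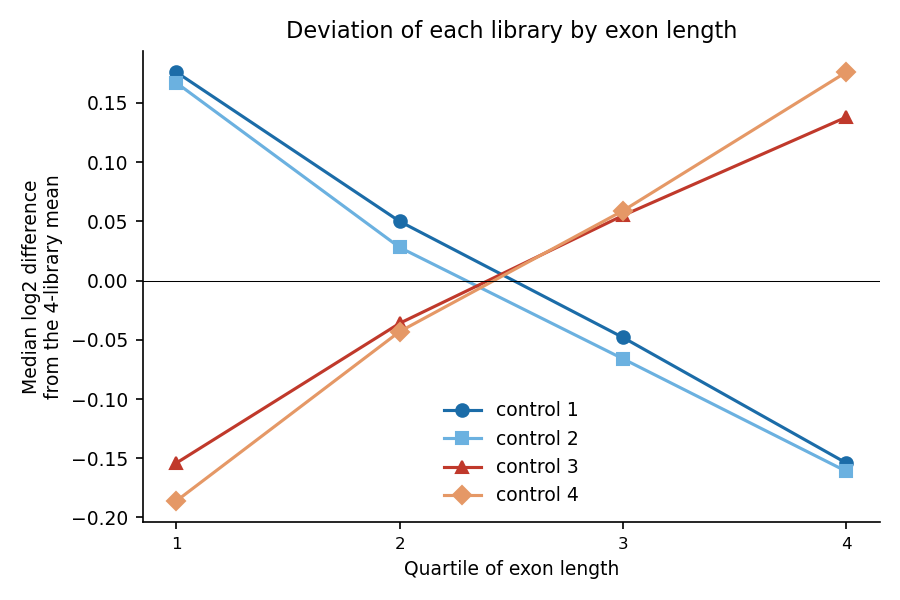
Median log2 difference of each control library from the mean of the 4 (y axis) in quartiles of exon length, shortest to longest (x axis). Controls 1 and 2 run from 0.18 and 0.17 to -0.15 and -0.16, and controls 3 and 4 from -0.15 and -0.19 to 0.14 and 0.18.

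Function lists followed this split to different degrees. Of 81 cytosolic ribosomal protein genes, of which 79.0% are in the shortest quartile, 100% were highest in control 1 or 2. Over all 11531 genes with a mean of at least 100 and a known length it was 49.0%, and over the shortest quartile 82.1%. For nuclear oxidative phosphorylation genes, 74.4% in the shortest quartile, the share was 96.7%, and for mitochondrial ribosomal proteins, 57.1% in the shortest quartile, 97.4%. The mRNAs of mitochondrial DNA went the other way. All 13 are in the shortest quartile, yet 15.4% were highest in control 1 or 2 and 69.2% in control 3. Control 3 was the highest library for 21.7% of all genes and for 8.7% of the shortest quartile. Among long genes of the sarcomere, control 4 was highest for Ttn, with 304039, 271689, 320041 and 491659 normalized counts, and for nebulin (Neb), with 164884, 161379, 281270 and 349855. The part of library preparation, RNA quality or tissue in this split was not tested.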

How the data were processed

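The members and gene lists were chosen with earlier results of these data known. The labels' protocols name a Norgen Biotek kit for total RNA and the NEBNext Ultra II library kit. The submitters' processing notes name cutadapt, FastQC, STAR, HTSeq, DESeq2 and the GRCm38 build. Versions, annotation, strand and overlap settings are not stated there. The authors deposited log2 values of normalized counts plus 1, not divided by length, for 54091 rows and all 8 samples. The values were taken back to normalized counts. The low values of each control library were whole multiples of a step (100% within 0.1 read), which gave the reads per library, between 70275629 and 109101290. Detection needed over 3 reads in each library. This floor covers counting error only.

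Shares were computed per library and given as mean ± SD (n = 4). Groups were not compared, since a single group is described. Dixon's test was used only to find libraries far from the other 3. Exon lengths came from GENCODE M21 (GRCm38) and covered 99.91% of counts, and 27 gene names stored as dates were restored. Shared sequence was the percent of a gene's 50-base windows found in transcripts of another gene, computed for selected genes. Promoters came from RefSeq (GRCm38.p6), and those on chromosome 18 were left out. Text names the 30 most abundant genes, family members with at least 1%, the 3 leading members of lists per kilobase, and the 10 most and 10 least variable genes with a mean of at least 1000. Other genes were named after their values were seen, and a few items that the rule covers are not reported here. Recovery of reads was tested on simulated data. Python 3.11.15, numpy 2.4.6, pandas 2.3.3 and matplotlib 3.10.9 were used.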

Additional observations from a re-analysis of the deposited data

Results flagged for a closer look

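Among 141 values with 4 libraries each, 8 had a library far from the other 3 by Dixon's test at its 95% level, and chance alone flags about 1 in 20. The values include the 10 most and 10 least variable genes, which were chosen by their spread over these same libraries. Myh7, Atp2a2, Pdcl and Gatad2a below come from that choice, so the chance rate does not hold for them. Values whose whole range was under 0.1 were not tested but are counted in the 141. Some values also overlap, since Myh7 and Atp2a2 enter both as genes and within the slow-fibre sum. The 8 flagged can therefore not be set strictly against the chance rate. Control 3 was the library apart for Myh7 (15188 normalized counts, the others 1787 to 2837), for Atp2a2 (30037, the others 7457 to 8109), for the share of Tnni2 in troponin I (99.7%, the others 99.9%), for the summed brown adipocyte genes (399.5, the others 120.2 to 155.1) and for Pdcl (1071, the others 1093 to 1097). Within the brown adipocyte genes, Ucp1 gave 12.7, 12.1, 133.4 and 0.0 normalized counts in controls 1 to 4. Control 2 was apart for the summed erythroid genes (37405, the others 19665 to 22253). Control 1 was apart for the share of Ppargc1a among the PGC-1 coactivators (45.4%, the others 49.4% to 49.6%) and for Gatad2a (2058, the others 2004 to 2010).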

How the results depend on the processing

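No paired analysis was possible because a single group is described and no groups were compared. With each control library left out in turn, genes detected ran from 15892 to 16128, the share of the 10 most abundant genes from 22.93% to 23.78%, the contractile share from 21.99% to 22.79%, the Myh4 share from 89.36% to 91.02%, and the median coefficient of variation from 13.82% (without control 4) to 14.73% (without control 3). Without controls 3 and 4 together, a choice made after seeing the data, that median was 6.38%. A coefficient from fewer libraries runs lower at the same spread, so that value is not comparable with the one over all of them. With all libraries the median was 18.37% over genes with a mean of at least 10 and 18.47% over all detected genes. Counting genes above 0 in any library gave 25120. With genes of mitochondrial DNA left out, the shares were 24.47% for the contractile lists, 8.64% for the thick filament, 6.74% for calcium handling and 6.99% for glycolysis and glycogen. Shares of counts per kilobase were 20.63% for the contractile lists, 16.81% for mitochondrial mRNAs, 5.56% for the thick and 12.18% for the thin filament, 6.56% for calcium handling, 5.42% for glycolysis and glycogen and 5.43% for nuclear oxidative phosphorylation. Those shifts follow from the denominator and the division by length. Scaling to equal totals leaves shares within a library as they are. By counts not divided by length, Hspb6 (32.58%) led Cryab (29.22%), and the shares of Ckmt2 (11.93%), Ldhb (5.22%) and Plin5 (17.51%) were lower by over 1.5 times. Plin5 (35.88%) led Plin4 (32.30%) without control 4, and also without controls 3 and 4 or with the median of the libraries. Of the remaining shares under the alternatives, 104 of 125 for function lists and 379 of 468 for leading paralogs stayed within 1 SD of the reported value. Leaving out libraries in these ways shifts a mean by less than 1 SD whatever the values, and scaling leaves shares unchanged. Almost all values under those settings therefore had to stay, so the 2 counts do not measure robustness. Depth limits only genes near the floor of 3 reads, or 2.04 to 3.17 normalized counts.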
